A study of Homo sapiens with 2 samples.

Results

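The 9 genes described here are the plasma apolipoproteins APOA1, APOA2, APOA4, APOB, APOC1, APOC3, APOE, APOM and APOH, chosen by symbol from the 36601 genes listed in the deposited matrices, in which all 9 were found. They were measured by single-cell RNA sequencing of 3′ ends in colon organoids grown from the induced pluripotent stem cells of 1383D6, an established human line. CNT is the library of untreated organoids, and 3CK is the library of organoids kept for 8 days with 3 cytokines, IL-1β, TNF-α and IFN-γ, with no dose stated in the labels. Both groups come from the same line, both went through the same directed differentiation with Activin A, FGF2, EGF, Forskolin, PD98059, 5-Aza-2'-Deoxycytidine and further factors in Matrigel, and each group is 1 library. By the title of the series the organoids serve to model ulcerative colitis, and the comparison asks how these transcripts differ after inflammatory cytokines. With 1 library per group no test across replicates was possible, no difference below has a replicate check, and every interval is a 95% interval that covers counting error only.

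Apolipoproteins are the protein part of lipoproteins, the particles that carry lipids in blood and lymph. APOB is the structural protein of chylomicrons, which enterocytes make from dietary fat, and of the very-low-density lipoprotein of the liver, and it is loaded with lipid by the transfer protein MTTP. APOA1 is the main protein of high-density lipoprotein and the activator of the enzyme LCAT, and APOE is a ligand for receptors that clear lipoproteins from the circulation. Liver and small intestine are the main sources of most of these proteins, whereas macrophages and other cell types are also known to make APOE and APOC1.

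Epithelial cells were barcodes with at least 10000 unique molecular identifiers (UMIs, 1 per captured transcript molecule), at least 2 EPCAM UMIs per 10000 and under 5 UMIs per 10000 of COL1A1, COL1A2 and COL3A1 together. This gave 942 cells with 68261829 UMIs in CNT and 717 cells with 68061987 UMIs in 3CK, with medians of 68462.5 and 93963 UMIs per cell. Mesenchymal cells had at least 5 collagen and under 1 EPCAM UMIs per 10000, and numbered 311 and 106, while 204 and 172 barcodes of the same depth met neither rule. No barcode was shared by the libraries. The submitters call the samples colon epithelial cells, and the markers of the epithelial cells were mixed: the hindgut transcription factor CDX2 stood at 81.3 CPM in CNT (10000 CPM are 1% of all UMIs) and 83.3 CPM in 3CK, 8 enterocyte markers summed to 1758 and 291 CPM, and 8 hepatic markers, all at 1 CPM or more, summed to 81997 and 25176 CPM. Most of the hepatic sum was TTR, at 66188 and 19480 CPM. CXCL10, a target of IFN-γ, was at 0.190 and 1768 CPM in these cells, in the direction the labels of the libraries give.

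Several members lie side by side in the genome, and neighbours differed in their ratios between libraries, so their positions and promoters are shown first. Positions are those of GENCODE release 44 on GRCh38, the build named in the submitters' processing notes. On chromosome 11, APOA4 (116820700 to 116823304, minus strand), APOC3 (116829706 to 116833072, plus strand) and APOA1 (116835751 to 116837622, minus strand) are separated by 6401 and 2678 bases. On chromosome 19, APOE (44905791 to 44909393) and APOC1 (44914247 to 44919349) both lie on the plus strand with 4853 bases between them. APOA2 is on chromosome 1 (161222292 to 161223631, minus strand), APOB on chromosome 2 (21001429 to 21044073, minus strand), APOM on chromosome 6 (31652416 to 31658210, plus strand) and APOH on chromosome 17 (66212033 to 66256525, minus strand).

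RefSeq promoter sequences (GRCh38.p14) were matched for 6 of the 9 members, APOA2, APOA4, APOC1, APOE, APOM and APOH. APOA1, APOB and APOC3 had no entry. The windows of APOE, APOA2 and APOA4 are printed because, of the matched members, only these have a window that lies mostly before the annotated gene. APOE had the smallest difference between libraries and APOA2 the second highest level. APOA4 had the most uneven distribution across CNT cells among the 8 more abundant members. Each is given 5′ to 3′ on the gene's own strand and ends before the gene's first annotated base, and capitals mark matches to the short motifs named after them. They are APOE at chr19:44905546-44905790 (plus strand), APOA2 at chr1:161223632-161223878 (minus strand) and APOA4 at chr11:116823305-116823554 (minus strand).
APOE: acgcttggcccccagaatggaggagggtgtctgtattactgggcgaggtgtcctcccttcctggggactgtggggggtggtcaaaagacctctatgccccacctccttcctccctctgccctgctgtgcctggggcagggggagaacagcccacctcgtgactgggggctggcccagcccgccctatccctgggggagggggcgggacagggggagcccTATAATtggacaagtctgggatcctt
APOA2: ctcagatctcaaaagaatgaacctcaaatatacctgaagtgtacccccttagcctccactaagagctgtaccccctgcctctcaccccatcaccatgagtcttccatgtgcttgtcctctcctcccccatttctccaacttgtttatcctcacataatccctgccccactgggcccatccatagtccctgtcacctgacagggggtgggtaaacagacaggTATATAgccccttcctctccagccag
APOA4: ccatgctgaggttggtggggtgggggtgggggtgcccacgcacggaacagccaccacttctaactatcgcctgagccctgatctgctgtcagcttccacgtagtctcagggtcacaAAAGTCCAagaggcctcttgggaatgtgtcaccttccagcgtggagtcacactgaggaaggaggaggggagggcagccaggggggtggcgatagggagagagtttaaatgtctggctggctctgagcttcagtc

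In the 250 bases before the start sites of the 6 matched members, motifs were searched on both strands, of which 7 are reported: CAAAGTCCA and CAAAGGTCA (HNF4A), TTCNNNGAA (STAT, the same on both strands), GAAANNGAA (interferon-stimulated response element), GGGANNTTC (NF-κB), TTGCNNAAT (C/EBP) and TATAAA. None of these 7 letter strings occurred in any of the 8 windows searched, which hold 3 start sites of APOE, whereas they occurred in 0.325%, 0.339%, 6.57%, 6.88%, 3.52%, 2.39% and 10.7% of 35116 promoters of the same length, in the same order. The capitals mark shorter strings added after the sequences had been read, of which AAAGGTCA (1.05% of promoters) had no match. AAAGTCCA, which CAAAGTCCA contains, lies 134 to 127 bases before the APOA4 start and is found in 0.980% of promoters. TATAAT lies 31 to 26 bases before the first APOE start and occurs in 6.06% of promoters, and TATATA lies 29 to 24 bases before the APOA2 start and occurs in 3.73%. These distances are counted to the start site of the promoter entry. For the first APOE start and for APOA2 the searched window runs on to bases 44905795 and 161223629, past the end of the printed sequence. The windows of APOC1, APOM and APOH and the third APOE window lie within the annotated gene, as does most of the second APOE window. A missing motif in those windows therefore says nothing about the sequence before the gene. A match or its absence describes only the letters in these windows.

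The apolipoproteins were among the most abundant transcripts of the epithelial cells and were less abundant in the cytokine-treated library. Together the 9 genes took 3.59% of all epithelial UMIs in CNT and 1.51% in 3CK, with -1.25 (-1.26 to -1.25) as the log2 ratio of 3CK to CNT. All 9 were lower in 3CK. In one library or both, 8 members reached 10 CPM, of which 7 were at least 2-fold lower in 3CK and none was 2-fold higher, against 7.76% of the 9784 genes with that minimum at least 2-fold lower and 8.07% at least 2-fold higher. The median log2 ratio of these 8 members was -1.39, and that of all 9784 genes was 0.06. The hepatic and enterocyte marker sums given above were lower in 3CK as well, and whether a different make-up of cells or less RNA of these genes per cell lies behind the difference cannot be told apart from sums alone.

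**Figure D1:**
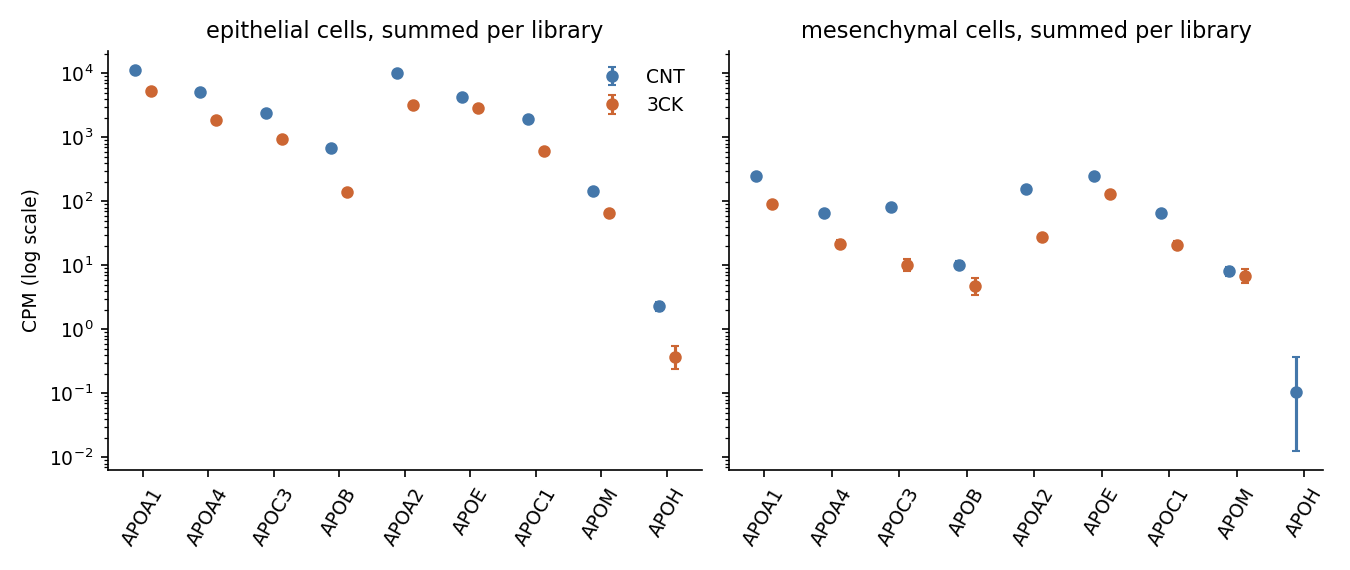
CPM of the 9 apolipoproteins on a log scale in epithelial cells (left) and mesenchymal cells (right), each summed over the cells of 1 library, CNT in blue and 3CK in orange, with exact 95% Poisson intervals that are mostly smaller than the points. In epithelial cells every 3CK point lies below its CNT point, with APOE closest (4213 and 2918 CPM), and the mesenchymal levels are far lower. APOH had no UMI in 3CK mesenchymal cells and has no point there.

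Because the assay counts 3′ ends, a CPM value is a share of captured molecules that is not divided by gene length, and it also depends on how well the end of each transcript is captured. With that limit, APOA1 and APOA2 led the family in CNT, at 11358 and 10103 CPM, as the transcripts of rank 2 and rank 4 among all genes. They were followed by APOA4, APOE, APOC3, APOC1, APOB, APOM and APOH. In 3CK the order was APOA1, APOA2, APOE, APOA4, APOC3, APOC1, APOB, APOM and APOH, so that APOE and APOA4 changed places. Neighbours in both orders had counting intervals that did not overlap.

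APOA1 of the chromosome 11 group, the high-density lipoprotein protein, had 775329 UMIs in CNT and 365104 in 3CK. Its level was 11358 CPM in CNT (11333 to 11384, exact Poisson) and 5364 CPM (5347 to 5382) in 3CK, a log2 ratio of -1.08 (-1.09 to -1.08). APOA1 took 31.6% of the member UMIs in CNT and 35.6% in 3CK, so its part of the family total was larger after treatment although its level was 2.12-fold lower. An antisense gene, APOA1-AS, overlaps APOA1 and had 50 and 29 UMIs. How the counting used strand is not given in the sources used here.

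APOA4, a chylomicron and high-density lipoprotein protein made mainly by enterocytes, stood at 5076 CPM in CNT against 1851 CPM in 3CK, a log2 ratio of -1.46 (-1.46 to -1.45). APOC3, an inhibitor of lipoprotein lipase, lay at 2390 and 957 CPM, a log2 ratio of -1.32 (-1.33 to -1.31). The 3 neighbours on chromosome 11 thus differed between libraries by 2.12-fold, 2.50-fold and 2.74-fold for APOA1, APOC3 and APOA4. Their ratio intervals did not overlap. APOA5, which lies 28279 bases beyond APOA4, was far less abundant, with 447 and 232 UMIs or 6.55 and 3.41 CPM (-0.94, -1.18 to -0.71).

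APOB had the largest difference among the members above 10 CPM. Its UMIs numbered 46277 and 9589, which is 678 CPM (672 to 684) against 141 CPM (138 to 144), a log2 ratio of -2.27 (-2.30 to -2.23) and a 4.81-fold difference. Only 1.86% of the 9784 genes had a smaller ratio. Among all genes APOB held rank 192 in CNT and rank 1074 in 3CK, and its part of the member UMIs was 1.89% and 0.935%.

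APOA2, the second protein of high-density lipoprotein, was at 10103 CPM in CNT against 3170 CPM in 3CK, a log2 ratio of -1.67 (-1.68 to -1.67). Its part of the member UMIs was 28.1% in CNT and 21.0% in 3CK. In CNT the level of APOA1 was close to that of APOA2, and in 3CK it stood well above it.

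APOE had the smallest difference, with 287592 and 198589 UMIs, or 4213 CPM (4198 to 4228) against 2918 CPM (2905 to 2931). The log2 ratio was -0.53 (-0.54 to -0.52), a 1.44-fold difference, and 16.1% of the 9784 genes had a smaller ratio. Its part of the member UMIs was 11.7% in CNT and 19.4% in 3CK. APOC1, a small inhibitor of lipoprotein-modifying enzymes and the neighbour of APOE, went with APOA2 instead: 1932 CPM in CNT and 607 CPM in 3CK, a log2 ratio of -1.67 (-1.69 to -1.65). The intervals of APOE and APOC1 lie far apart. Further along the same chromosome, APOC2, the activator of lipoprotein lipase, was at 722 and 175 CPM (-2.04, -2.07 to -2.01), and APOC4 had 118 and 20 UMIs.

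APOM, a lipocalin that carries sphingosine-1-phosphate on high-density lipoprotein, was at 147 CPM in CNT against 66.5 CPM in 3CK, a log2 ratio of -1.15 (-1.20 to -1.10). APOH, a phospholipid-binding plasma glycoprotein, was close to the limit of these data, with 157 and 25 UMIs. This gave 2.30 and 0.367 CPM and a log2 ratio of -2.65 (-3.32 to -2.03), where 3 UMIs correspond to 0.0439 CPM in CNT and 0.0441 CPM in 3CK. APOH is therefore left out of the spread and the correlations below.

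Next, the cells were compared one by one. Each cell was thinned to 10000 UMIs, because the 3CK cells were deeper, and no cell was lost since all had at least that many. Most members were detected in most cells of both libraries. APOA1 was seen in 939 of 942 CNT cells (99.7%, 99.1 to 99.9, exact binomial) and in 710 of 717 3CK cells (99.0%, 98.0 to 99.6). APOE was seen in 99.04% and 98.7%, a difference of -0.300 percentage points (Newcombe interval -1.50 to 0.737). For these 2 members the interval of the difference included 0.

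For the other 7 members the share of positive cells was lower in 3CK beyond the counting interval. APOB had the largest change in share, from 81.7% (79.1 to 84.2) to 44.4% (40.7 to 48.1). APOM was seen in 56.8% and 35.1% of cells, APOC1 in 92.8% and 73.8%, and APOC3 in 87.2% and 71.4%. Smaller differences were found for APOA4, at 89.9% and 80.8%, and APOA2, at 98.5% and 92.2%. APOH was seen in 20 of 942 cells (2.12%, 1.30 to 3.26) and 1 of 717 (0.139%, 0.00353 to 0.775). Without thinning the shares were higher, for example 94.7% and 82.6% for APOB and 10.8% and 2.79% for APOH.

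Free RNA in the droplets can give UMIs in cells that do not express a gene. The part of free RNA in the counts below was not tested. For comparison, the same shares were taken in mesenchymal cells, which should lack most of these proteins. Thinned in the same way, with unthinned medians of 52981 and 76589.5 UMIs per cell, they had an APOB UMI in 11.6% of CNT cells and 2.83% of 3CK cells. APOM was seen in 28 of 311 and 5 of 106 of them. APOH was seen in 0 of 311 and 0 of 106 mesenchymal cells, which allows shares of up to 0.965% and 2.83% (3 cells of the total), too wide a limit to set the APOH share in 3CK epithelium against. APOA1 was seen in 85.9% and 50.9% of mesenchymal cells, where the median cell held 2 and 1 UMIs, against 79.5 and 39 in epithelial cells. The share of positive cells differed between the classes as well. APOA2 was seen in 68.5% and 31.1% of mesenchymal cells, against 98.5% and 92.2% of epithelial cells.

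**Figure D2:**
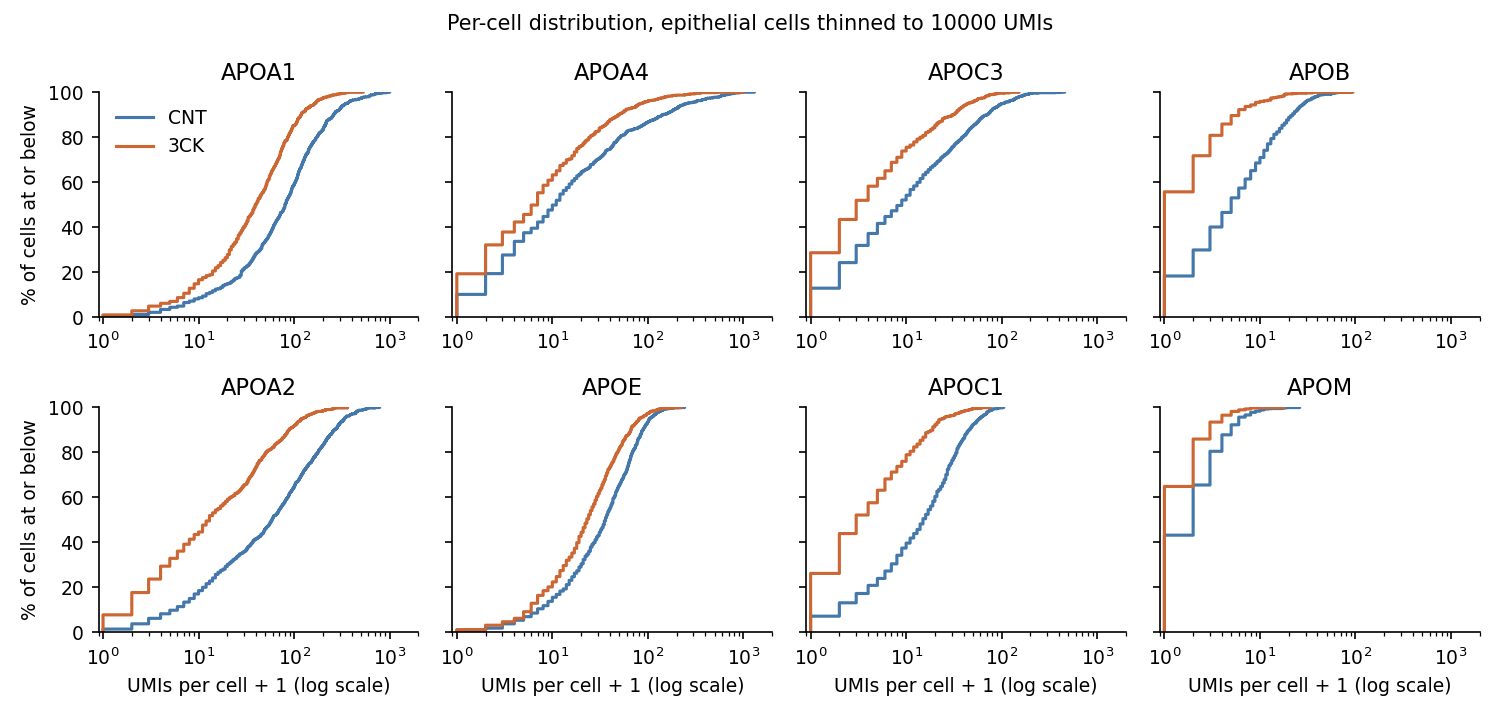
Percent of epithelial cells at or below a given number of UMIs (plus 1, log scale) after thinning each cell to 10000 UMIs, for 8 members, CNT (942 cells) in blue and 3CK (717 cells) in orange. The orange curves lie mostly to the left of the blue curves in each panel, with a narrow gap for APOE and a wide one for APOB, APOA2 and APOC1.

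Per cell, the median number of APOA1 UMIs in 10000 was 79.5 in CNT and 39 in 3CK. The median of APOA2 was 58 and 12, that of APOC1 was 14 and 2, and that of APOB was 4 and 0. APOE medians were closer, at 35 and 22. The distributions overlapped widely: 30.4% (27.1 to 33.9) of 3CK cells lay above the CNT median of APOE, 21.8% (18.8 to 24.96) above that of APOA1, and 10.5% (8.32 to 12.9) above that of APOB. For the sum of all 9 members the median cell held 274 UMIs in CNT and 107 in 3CK, and 16.04% (13.4 to 18.9) of 3CK cells exceeded the CNT median.

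The members also differed in how evenly the cells shared them. APOE was the most even, with 26.8% of its thinned UMIs in the 10% of CNT cells with the most and 30.7% in 3CK. APOA4 was the least even of the 8 more abundant members in CNT: its top 94 of 942 cells held 67.4% of the UMIs, the median cell had 10 and the highest cell 1302. In 3CK the top 72 of 717 cells held 63.2% of APOA4 UMIs, and the median was 6. By this measure APOB was more uneven in 3CK, with 41.0% and 63.7% in the top 10% of cells. So was APOC1, with 31.5% and 47.1%, and 6 of these 8 members had a larger top share in 3CK. APOA1 (36.6% and 33.7%) and APOA4 were the exceptions. Fewer UMIs per cell can by themselves raise a top share, and their part was not tested. The variance divided by the mean was lower in 3CK for each of these members, such as APOC1 (17.8 and 14.5), except APOB (13.86 and 13.91).

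Within a cell, APOA1 was most often the member with the most UMIs, in 386 of 942 cells of CNT (41.0%, 37.8 to 44.2) and in 377 of 717 of 3CK (52.6%, 48.9 to 56.3). APOA2 led in 36.9% (33.9 to 40.1) of CNT cells but 17.9% (15.1 to 20.9) of 3CK cells. APOE led in 9.13% (7.37 to 11.2) and 20.2% (17.3 to 23.4). Cells led by APOA4 made up 8.17% and 5.58%, and a tie or no UMI was left in 20 and 18 cells.

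Across cells of 1 library, the members formed groups that partly followed the genome. The values are Spearman correlations over 942 CNT and 717 3CK cells thinned to the same depth. They are given as descriptions, since the cells share a library. Among the 28 pairs without APOH, the median was 0.40 in CNT and 0.34 in 3CK, and 19 and 16 pairs reached 0.3. The chromosome 11 neighbours APOA1, APOA4 and APOC3 had correlations from 0.58 to 0.66 with each other in CNT and from 0.53 to 0.65 in 3CK. A second group joined APOA2 and APOC1, at 0.75 and 0.71, with APOE, which had 0.65 and 0.55 with APOA2 and 0.66 and 0.55 with APOC1. Between the groups APOA4 and APOE had only 0.12 in CNT and 0.26 in 3CK, while APOC3 and APOA2 had 0.42 and 0.51. APOA1 was tied to both, with 0.53 and 0.61 for APOE.

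**Figure D3:**
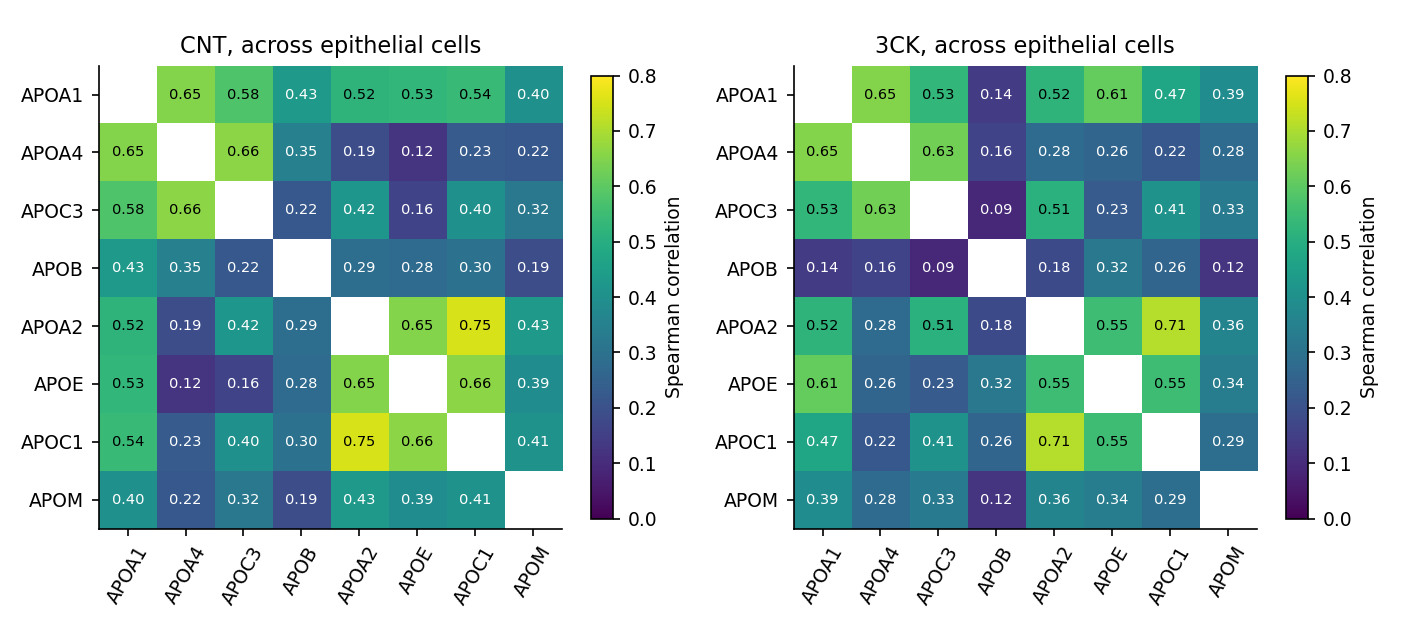
Spearman correlation between 8 members across epithelial cells thinned to 10000 UMIs, CNT (942 cells, left) and 3CK (717 cells, right), with the colour scale from 0 to 0.8. High values join APOA1, APOA4 and APOC3, and also APOA2, APOE and APOC1, with APOA1 tied to both. The APOB row is lower in 3CK than in CNT for every member but APOE.

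APOB stood apart. Its correlation with APOA1 was 0.43 in CNT and 0.14 in 3CK, and with APOA4 0.35 and 0.16, while its correlation with APOE was 0.28 and 0.32. Fewer UMIs per cell lower such a value, so the CNT APOB counts were thinned to the 3CK mean of 1.83 UMIs. The CNT correlation was then 0.35 with APOA1 and 0.27 with APOA4, against 0.14 and 0.16 in 3CK. APOA1 and APOA4 kept their CNT counts in this step, although both had fewer UMIs per cell in 3CK. The part of those lower counts was not tested.

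The genes outside the family whose pattern across cells was most like that of a member were mostly hepatic secreted proteins. They were chosen by the mean Spearman correlation over both libraries among genes with a UMI in at least 10% of thinned cells in each. RBP4, the retinol carrier, came first for APOA1 (0.62), APOA2 (0.63), APOC1 (0.56) and APOM (0.42). AFP came first for APOB (0.53) and APOE (0.58). APOB was next closest to MTTP (0.44), the protein that loads it with lipid, and to the fibrinogen gene FGB (0.40). APOA4 and APOC3 were closest to APOC2 (0.45 and 0.56). For APOA4, PRAP1, a secreted protein known from gut epithelium, came second (0.37), and for APOC3, RBP4 came second (0.48).

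Marker sums were compared next. The summed hepatic markers had correlations with APOA1 of 0.54 in CNT and 0.63 in 3CK, with APOA2 of 0.52 and 0.69 and with APOE of 0.53 and 0.62. TTR alone gave 66188 of the 81997 CPM of this hepatic sum in CNT and 19480 of 25176 CPM in 3CK. These correlations therefore follow mainly TTR. The summed enterocyte markers correlated in CNT with APOB (0.54), APOA4 (0.47) and APOA1 (0.45) but little with APOE (0.07) or APOA2 (0.13). FABP1 alone gave 1031 of the 1758 CPM of this enterocyte sum in CNT. In 3CK, where those enterocyte markers were scarce, the values were 0.33 for APOB, 0.11 for APOA4, 0.14 for APOA1, 0.18 for APOE and 0.12 for APOA2, so that the difference seen in CNT between APOA4 or APOA1 and APOE or APOA2 was not present.

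TTR, the plasma carrier of thyroxine and the most abundant transcript of the CNT epithelial cells, was itself lower in 3CK, at 66188 and 19480 CPM. The cells were therefore divided by TTR into under 100, 100 to 500 and at least 500 UMIs per 10000, ranges of a level and not cell types. The low range held 126 CNT cells (13.4%) and 349 3CK cells (48.7%), the middle range 319 (33.9%) and 299 (41.7%), and the high range 497 (52.8%) and 69 (9.62%). All 9 members were more abundant in the high than in the low range in both libraries, APOH on very few UMIs. APOA1, for instance, was at 2779, 9497 and 14240 CPM across the ranges in CNT and at 3091, 6644 and 10332 CPM in 3CK.

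Within these ranges the differences between libraries were smaller for most members, although TTR itself still differed, by log2 ratios of 0.07 in the low, -0.37 in the middle and -0.41 in the high range. With boundaries at 50 and 250 UMIs per 10000 the TTR ratio in the high range was -0.76. For APOE they were near 0, with log2 ratios of 0.21 (0.19 to 0.24) in the low, 0.04 (0.03 to 0.05) in the middle and 0.10 (0.08 to 0.11) in the high range. With the boundaries at 50 and 250 they were 0.85, -0.10 and -0.02, so no direction is read from them. APOA1 had 0.15, -0.52 and -0.46 in the low, middle and high range, and APOA2 -0.71, -0.81 and -0.70. APOM had -0.51, -0.44 and -0.30. For APOA1, APOA2 and APOM each of these values lies nearer to 0 than the ratio over all epithelial cells.

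APOB was lower in 3CK in each range. It was at 345, 740 and 712 CPM in the low, middle and high range of CNT and at 106, 133 and 359 CPM in 3CK, log2 ratios of -1.70 (-1.77 to -1.62), -2.47 (-2.52 to -2.42) and -0.99 (-1.05 to -0.92). With boundaries at 50 and 250 the APOB values were -1.22, -2.55 and -1.67. APOA4 also varied between ranges, with -0.10 (-0.13 to -0.07), -1.30 (-1.31 to -1.28) and -0.57 (-0.59 to -0.55). Under the other boundaries its value in the low range was 0.11. Of the 27 combinations of 9 members and 3 ranges, 23 had a lower CPM in 3CK.

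**Figure D4:**
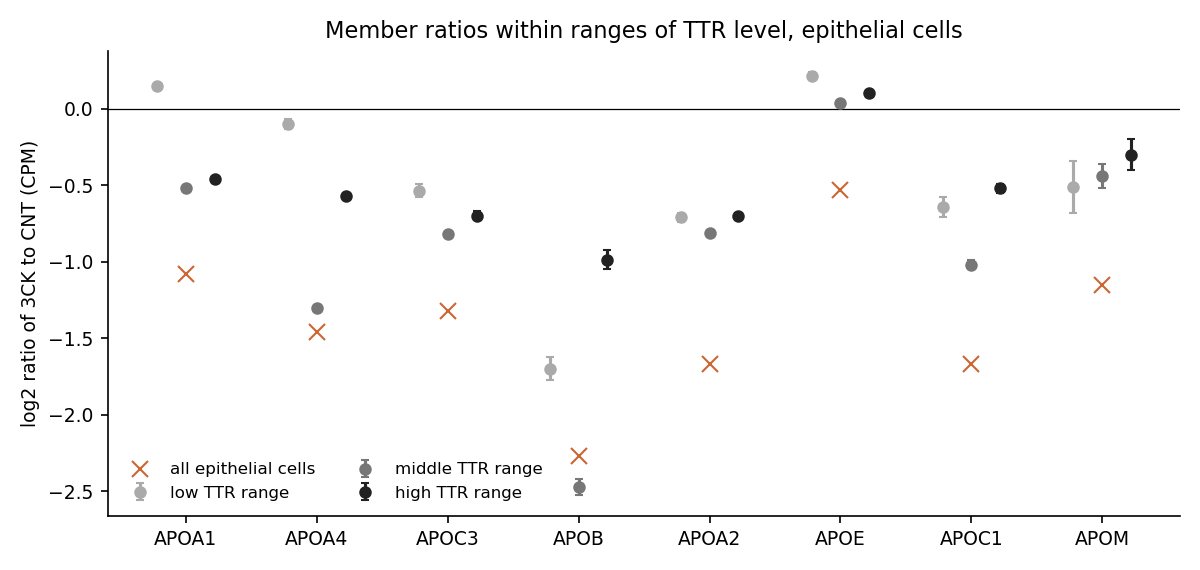
Log2 ratio of CPM in 3CK to CNT for 8 members in epithelial cells of low (under 100), middle (100 to 500) and high (at least 500) TTR UMIs per 10000, with 95% counting intervals, and over all epithelial cells (orange crosses). APOE lies at or just above 0 in each range although its overall ratio is -0.53, while APOB lies at or below -0.99 in each range.

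Depth was looked at next. Among epithelial cells with 10000 to 50000, 50000 to 100000 and over 100000 UMIs, the log2 ratios of APOE were -0.47, -0.61 and -0.32 and those of APOB -1.86, -1.94 and -1.94. APOA4 depended more on depth, with -0.64, -1.45 and -1.31, and APOC3 had -1.98, -1.37 and -1.22. The ranges held 266, 480 and 196 CNT cells and 128, 269 and 320 3CK cells. The ratio of APOE was the nearest to 0 of the 9 members in each of these depth ranges, whereas the order of the others differed between them.

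In mesenchymal cells APOE had the most UMIs of the 9 members, although its CNT interval overlapped that of APOA1 (246 CPM, 239 to 253). It had 4841 UMIs in the 311 CNT cells and 1197 in the 106 3CK cells, or 251 CPM (244 to 258) against 132 CPM (124 to 139), a log2 ratio of -0.93 (-1.02 to -0.84). That is 5.96% of its epithelial level in CNT and 4.52% in 3CK. APOM, at 5.46% and 10.3% on far fewer UMIs, was the other member near this level. For TTR, which marks RNA from the epithelial cells, the mesenchymal level was 1.44% and 1.13% of the epithelial one. Per TTR UMI, APOE had 0.0637 UMIs in CNT epithelium, 0.0804 in CNT barcodes under 10000 UMIs and 0.263 in CNT mesenchyme. The 3CK values were 0.1498, 0.202 and 0.598. The barcodes under 10000 UMIs had no filter on genes, mitochondrial share or doublets. AFP, for comparison, had 0.113, 0.196 and 0.187 UMIs per TTR UMI in CNT and 0.111, 0.193 and 0.252 in 3CK. Other members were also higher per TTR UMI in CNT mesenchyme than in CNT epithelium, with APOA1 at 0.257 and 0.172 and APOC1 at 0.0686 and 0.0292. APOC3 had 0.08497 and 0.0361, but its mesenchymal value rests on 1 cell. Of its 1565 UMIs in CNT mesenchyme, 466 were left without that cell. The part of free RNA in the mesenchymal APOE was not tested. APOE made up 28.4% of the member UMIs in CNT mesenchyme and 42.0% in 3CK.

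The mesenchymal APOE was spread unevenly. After thinning, the median cell held 1 UMI in both libraries, the highest CNT cell held 53 and the highest 3CK cell 12, and the top 10% of cells held 52.5% and 45.3%. An APOE UMI was seen in 69.5% (64.0 to 74.5) of CNT cells and 57.5% (47.6 to 67.1) of 3CK cells. Across these cells the correlation of APOE with TTR was 0.07 in CNT and 0.08 in 3CK, with the collagen genes -0.03 and 0.11, and with the summed macrophage markers 0.06 and 0.16, all of them weak. Markers of macrophages, a known source of APOE, summed to 71.2 CPM in CNT and 224 CPM in 3CK over 12 genes, of which 8 and 6 were under 1 CPM. C1QC had 0 UMIs in CNT and 1 in 3CK, C1QB 0 and 8, and PTPRC 10 and 33. TYROBP reached 27.5 and 87.7 CPM, CD68 26.8 and 91.5 CPM, FCER1G 1.71 and 15.6 CPM, and AIF1 0.674 and 11.2 CPM. CD14, at 13.2 and 11.8 CPM, and CD163, with 6 and 1 UMIs, were not higher in 3CK. The part of macrophage markers in the APOE level was not tested.

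The other members were also lower in 3CK mesenchyme. Of the 7 members with at least 10 CPM there, all but APOE, that is 6, were at least 2-fold lower, against 9.39% of the 10262 genes with that minimum. APOC3 had the largest difference, from 81.1 to 10.1 CPM (log2 ratio -3.00, -3.32 to -2.70), but 1 CNT cell decided it: without the cell with the most APOC3 in each library the values were 24.4 and 9.77 CPM and the log2 ratio was -1.32. APOB was at 10.1 and 4.73 CPM (log2 ratio -1.09, -1.60 to -0.60), and at -0.48 (-1.06 to 0.06) in the 230 and 57 cells with at least 20 collagen and under 0.5 EPCAM UMIs per 10000. APOM was at 8.03 and 6.82 CPM (-0.24, -0.68 to 0.20), an interval that includes 0. APOE had -0.66 under that stricter rule. TTR was lower there too, at 955 and 220 CPM, and its part in these differences was not tested.

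The genes that make, load, receive and remodel lipoproteins were taken from 6 lists and counted in epithelial cells over the genes that reached 1 CPM in one library or both. In all genes with that minimum 11.8% of 16729 were at least 2-fold lower and 8.91% at least 2-fold higher, and the median log2 ratio was 0.01. The hepatic secreted proteins were nearest to the apolipoproteins: 9 of 15 were at least 2-fold lower, none was 2-fold higher, and the median was -1.40. The list of other apolipoproteins and their partners had 3 of 11 lower and 1 higher, with a median of -0.57. Assembly and secretion genes had 9 of 27 lower and 0 higher, with a median of -0.56.

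Among the assembly genes, MTTP, the partner of APOB, had 6487 and 2394 UMIs, the latter 35.2 CPM, with a log2 ratio of -1.43 (-1.50 to -1.37). CIDEB, a lipid-droplet protein used in lipidating APOB particles, was at 34.5 and 6.80 CPM (-2.34, -2.49 to -2.20). The fatty-acid binding proteins FABP1, at 1031 and 140 CPM, and FABP2, at 192 and 19.4 CPM, had the largest differences of this list. By contrast the general folding enzyme P4HB, the other subunit of the MTTP complex, was at 670 and 778 CPM (0.22, 0.20 to 0.23). The lipid-droplet coat genes PLIN2 (0.66) and PLIN3 (0.75) were higher.

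The receptor list was divided, with 3 of 19 genes at least 2-fold lower, 3 higher and a median of -0.42. The syndecan SDC4, a heparan sulfate proteoglycan, was at 102 and 286 CPM (1.49, 1.45 to 1.53). CUBN, the endocytic receptor cubilin that binds APOA1, was at 118 and 7.43 CPM, a log2 ratio of -3.98 (-4.12 to -3.85). CD36 had 324 and 48 UMIs (-2.75). LRP1, a large clearance receptor for APOE, and SCARB1, the high-density lipoprotein receptor, differed less, at -0.58 and -0.42.

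In the list of efflux proteins, lipases and remodelling factors 4 of 15 genes were at least 2-fold lower, 0 were higher, and the median was -0.29. SOAT2, which esterifies cholesterol for APOB particles, was at 11.1 and 1.09 CPM (-3.35), and the cholesterol importer NPC1L1 at 15.0 and 5.16 CPM (-1.54). ABCA1, which loads cholesterol onto APOA1, was at 155 and 81.0 CPM, a log2 ratio of -0.93 (-0.98 to -0.89).

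Transcription factors of these genes had smaller differences, with 4 of 30 at least 2-fold lower, 1 higher and a median of -0.32. HNF4A, an activator of many apolipoprotein genes, was at 42.0 CPM in CNT against 24.5 CPM in 3CK, a log2 ratio of -0.78 (-0.87 to -0.69). PPARA (-0.44, -0.55 to -0.35) was closer to 0. FOXA1 (-1.73) and CEBPA (-1.36, -1.44 to -1.27) were lower, whereas CEBPB, the C/EBP factor known from acute-phase responses, was at 29.6 and 124 CPM (2.06, 1.99 to 2.13).

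**Figure D5:**
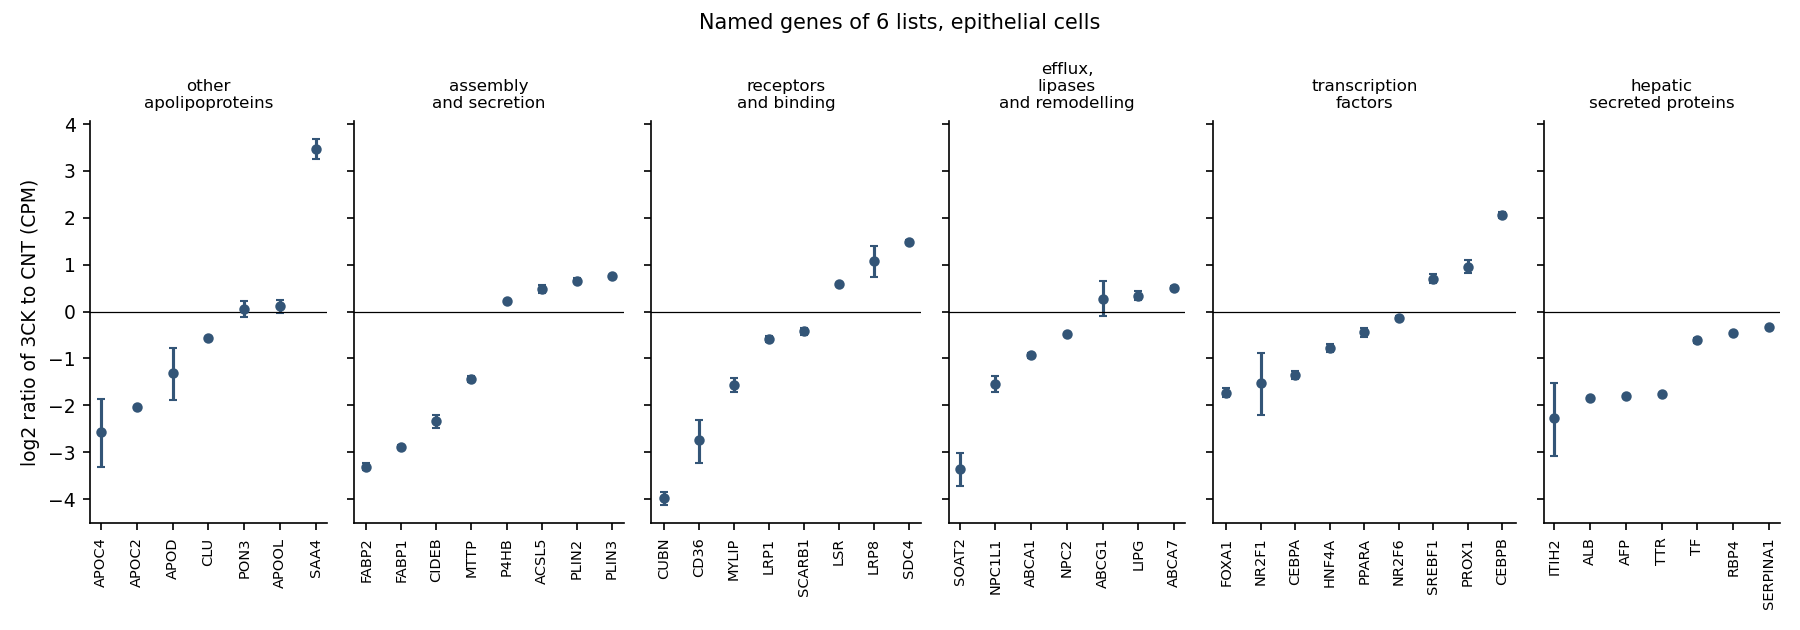
Log2 ratio of CPM in 3CK to CNT in epithelial cells, with 95% counting intervals, for genes of 6 lists chosen by the naming rule. The lists of assembly genes, receptors and lipases each span from strongly lower genes (FABP2, CUBN, SOAT2) to higher ones (PLIN3, SDC4, ABCA7), while all 7 hepatic secreted proteins shown lie below 0.

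Among hepatic secreted proteins ALB was at 1467 CPM in CNT against 411 CPM in 3CK (-1.84, -1.86 to -1.82) and AFP at 7504 and 2159 CPM (-1.80). RBP4, at 2485 and 1814 CPM (-0.45), and SERPINA1, the protease inhibitor of the acute phase, at 905 and 718 CPM (-0.33), differed by less than APOE. In the list of other apolipoproteins, CLU was at 573 and 387 CPM (-0.57). SAA4, the constitutive serum amyloid A of high-density lipoprotein, had 202 and 2218 UMIs (3.46, 3.25 to 3.68). In GENCODE the gene SAA2-SAA4 overlaps it, and reads of both cannot be told apart here.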

How the data were processed

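The matrices the authors deposited hold raw UMI counts for each gene in each barcode. Per the file headers the software was Cell Ranger 7.1.0, with GRCh38 named in the submitters' processing notes; the annotation used for counting is not given in the sources used here. The deposited gene and barcode lists (other columns) name the rows and columns. About 8300 cells were loaded per library, and the matrices held 3257 CNT and 1641 3CK barcodes with 105314879 and 94887438 UMIs.

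Barcodes with at least 500 genes and at most 20% mitochondrial UMIs were kept, and the highest Scrublet scores (scanpy 1.11.5) were removed at 0.8% per 1000 barcodes (52 CNT and 16 3CK barcodes). Of these, 2 and 5 were in the epithelial and 1 and 1 in the mesenchymal class. UMIs were summed per library and class and scaled to CPM by all UMIs. The interval of a ratio is the exact binomial one for the part of both libraries' UMIs found in 3CK. No ratio was formed with 3 UMIs or fewer in both libraries. The ratio and the thinning were tested on simulated data. Analyses used Python 3.11.15, scipy 1.17.1 and edgeR 4.0.16 (TMM factors).

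The members and lists were chosen with earlier results of these data known. Named genes were all members, and from each of the 6 lists the most abundant gene by mean CPM, the 3 highest and the 3 lowest ratios, and always MTTP, LRP1, SCARB1, ABCA1, HNF4A, PPARA, CEBPA, TTR, ALB and AFP. Some genes that the rule names, and 1 of the motifs searched, are not reported here. APOA5, APOA1-AS, CXCL10 and single marker genes were named after their values were seen. Marker sums came from 11 fixed lists. The endothelial, erythroid, adipocyte, endocrine, cycling and neural lists are given in the closing section. Alternatives are in the closing section too.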

Additional observations from a re-analysis of the deposited data

Results flagged for a closer look

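APOE was higher in 3CK than in CNT among the barcodes with under 10000 UMIs, which the report uses only for levels of APOE and AFP per TTR UMI. It had 6389 UMIs in CNT and 4473 in 3CK there, or 2140 and 2838 CPM, a log2 ratio of 0.41 (0.35 to 0.46), against -0.53 in epithelial cells. No other member had a counting interval above 0 in these barcodes: APOC3 was at 918 and 932 CPM (0.02, -0.07 to 0.11), APOA1 at 6144 and 5110 CPM (-0.27, -0.30 to -0.23), and APOB at 616 and 255 CPM (-1.27, -1.43 to -1.11). These barcodes numbered 1738 in CNT and 604 in 3CK. They include barcodes that failed the filters on genes, mitochondrial share or doublets. They were not divided by cell class, and the difference was not tested.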

How the results depend on the processing

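All 9 members stayed lower in 3CK epithelium under each of the 11 alternatives of scaling, filter, doublets, depth and class boundaries. Log2 ratios ranged from -0.64 to -0.40 for APOE, -1.19 to -0.97 for APOA1, -2.38 to -2.08 for APOB and -2.83 to -2.47 for APOH. With EPCAM at least 5 per 10000, 6 of 9 members were at least 2-fold lower, against 8 of 9, as APOA1 (-0.97) and APOM (-0.96) no longer reached it. TMM factors shifted all ratios by 0.02, and leaving mitochondrial, ribosomal and the 50 most abundant genes out of the total by -0.11. TTR boundaries at 50 and 250 reversed 4 values: APOE was -0.10 in the middle and -0.02 in the high range, APOA4 0.11 and APOH 1.37 in the low range, and the cause was not tested. With a minimum of 1 CPM, which tests more genes, 1974 genes were at least 2-fold lower and 1491 higher, in place of 759 and 790. The 23 other alternatives to a count stayed within 1.5 times. No paired analysis was possible because each group is 1 library. For APOH, depth limits what can be said.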

Other observations

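Across 3CK epithelial cells thinned to 10000 UMIs, the summed UMIs of a 19-gene interferon response list had Spearman correlations of 0.25 with APOA1, 0.14 with APOA4, 0.01 with APOE, -0.07 with APOA2 and -0.26 with APOB. These are weak and are given as a description of 717 cells of 1 library. In CNT the values were 0.08, 0.22, -0.21, -0.22 and -0.17. APOB was also lower in cells with more of the summed epithelial markers, at -0.42 in CNT and -0.24 in 3CK, while APOA1 had -0.11 and 0.19.

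Marker sums of other lists in the epithelial cells follow, CNT before 3CK. The endocrine list summed to 137 and 72.4 CPM, the endothelial list to 20.9 and 27.9 CPM, the erythroid list to 9.76 and 1.20 CPM, the adipocyte list to 0.220 and 0.235 CPM, the cycling list to 19.3 and 26.7 CPM and the macrophage list to 107 and 119 CPM. The list for glia and neurons summed to 211 and 274 CPM, nearly all of it TUBB3, with 5 of its 6 genes under 1 CPM. The mesenchymal list summed to 1175 and 798 CPM in the epithelial cells, mostly VIM.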
